A study of Mus musculus with 40 samples.

Results

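The comparison set mouse bladder urothelial organoids labelled as double knockouts of Kmt2c and Kmt2d and given MI-503 against wild-type (WT) organoids given only the solvent DMSO. It asks where RNA levels stand, relative to untreated WT cells, once the knockout label and the inhibitor are combined, and which genes end at, short of or beyond the untreated WT level. The members are the 2 libraries of MI-503-treated double knockouts (dKO MI-503) and the 2 libraries of WT DMSO, 4 of the 40 samples of the series, taken by their labels, with 16921 of 53465 genes tested. The 2 libraries of dKO given DMSO (dKO DMSO) mark the point between them, and the 2 libraries of WT given MI-503 (WT MI-503) are quoted beside some results. All 8 are polyA RNA-seq libraries. Treatment was MI-503 at 1 µM for 4 days, or DMSO for the same 4 days. Every group grew as organoids in the same medium, with EGF, Noggin and R-spondin, the ROCK inhibitor Y-27632 and the TGF-beta receptor inhibitor A83-01. Strain, animal age, the alleles, the way of deletion, and whether a genotype is 1 line or several are not stated in the labels, nor whether replicates were separate cultures. The p-values therefore rest on the spread between these libraries, which may be technical.

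KMT2C and KMT2D are large enzymes that methylate histone H3 lysine 4 at enhancers, and the genes are often mutated in bladder cancer. MI-503 is a small molecule that occupies the pocket of menin where the methyltransferase KMT2A binds. The menin and KMT2A complex methylates the same lysine at promoters and is known for keeping Hox genes and Meis1 on in leukaemia. The urothelium is a layered epithelium in which basal cells, marked by keratin 5 and p63, replace the intermediate and umbrella cells that carry uroplakins.

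Levels are given as CPM, a library's counts rescaled to a fixed total, with TMM factors, which assumes that most genes keep their share of a library. Fold changes are log2 values with a standard error (SE) from edgeR's quasi-likelihood test, and a gene is said to have risen or fallen where the p adjusted over all genes tested (Benjamini-Hochberg) was under 0.05. Library totals ran from 58113705 to 68571176 counts. The 2 WT DMSO libraries stood apart from the other 6: genes of endoplasmic reticulum (ER) chaperones and folding enzymes made up 4.17% and 4.49% of them by CPM, while the other 6 held 0.437% to 0.573%. Both libraries of the reference group share this state, so no comparison with untreated WT can be made without it, and the values in dKO MI-503 against WT MI-503 are given beside the stress gene lists. The tested markers of basal urothelium summed to 16014.3 to 17225.9 CPM in WT DMSO and 30168.4 to 33005.1 CPM in dKO MI-503, so the defining genes of the labelled cell type were present in both. In bulk RNA, fewer cells of a type and less RNA per cell cannot be told apart.

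Kmt2c was lowest in dKO MI-503, while Kmt2d stood at about its untreated WT level. Kmt2c (ENSMUSG00000038056, chromosome 5, 25271795 to 25498855 in GRCm38.p6) measured 110.2 and 111 CPM in WT DMSO, 55.2 and 52.3 CPM in dKO DMSO and 26.6 and 29.8 CPM in dKO MI-503. The groups did not overlap, and the end value against WT DMSO was -1.97 (SE 0.062, adjusted p = 3.55e-12). Kmt2c also fell with MI-503 in WT, to 60.3 and 61.6 CPM (log2 fold change -0.86, adjusted p = 1.21e-08). A difference in its MI-503 effect between the genotypes did not pass (interaction -0.07, 95% interval -0.25 to 0.11, adjusted p = 0.529). Kmt2d (ENSMUSG00000048154), at 98831669 to 98874077 on chromosome 15, measured 95.4 and 86.5 CPM in WT DMSO, 111 and 133 CPM in dKO DMSO and 104 and 86.5 CPM in dKO MI-503. The first and the last of these groups overlapped, with a log2 fold change of 0.07 (95% interval -0.15 to 0.28, adjusted p = 0.556). By library size only it passed as higher (0.31, adjusted p = 0.0146). Counts run over whole genes and the labels name no deleted exons. These levels therefore do not show whether either gene was lost, and the groups are called by their labels. Men1, which encodes menin, the protein that MI-503 binds, measured 17.0 and 14.5 CPM in WT DMSO and 48.7 and 42.9 CPM in dKO MI-503 and rose (log2 fold change 1.54, SE 0.086, adjusted p = 1.23e-09). It was also above WT DMSO in dKO DMSO, at 29.6 and 32.0 CPM, and in WT MI-503, at 34.1 and 32.4 CPM. Kmt2a, which encodes menin's partner, measured 133 and 131 CPM in WT DMSO, 150 and 149 CPM in dKO DMSO and 89.2 and 84.5 CPM in WT MI-503. In dKO MI-503 it measured 116 and 123 CPM, slightly below WT DMSO (log2 fold change -0.14, adjusted p = 0.0194). That small fall rests on the processing. It did not pass with RLE size factors (adjusted p = 0.0839) or in DESeq2 (adjusted p = 0.122), and by library size only the value was 0.10 (adjusted p = 0.0677).

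Most genes differed between dKO MI-503 and WT DMSO, 12134 of 16921 (71.7%). Higher in dKO MI-503 were 5805 (34.3%), lower were 6329 (37.4%), and 4787 did not pass. The rise was at least 2-fold for 2814 (16.6%) and at least 8-fold for 548. The fall was at least 2-fold for 2658 (15.7%) and at least 8-fold for 479. The share of calls that were higher was 47.8%. By library size only it was 60%, and that scaling moved the median of all genes from -0.033 to 0.21, so small changes carry a direction only relative to the scaling. The libraries of both groups did not overlap for 84.6% of genes, so a lack of overlap alone sets no gene apart. The genotype step, dKO DMSO against WT DMSO, had 65.4% of genes called, with 29.6% higher and 35.8% lower, and 10.5% and 12.1% by at least 2-fold. The MI-503 step, dKO MI-503 against dKO DMSO, had 55.6% called, with 29.1% higher and 26.5% lower, and 8.89% and 5.19% by at least 2-fold. Between dKO MI-503 and WT MI-503, 55.1% of genes were called, 26.6% higher and 28.5% lower, and between WT MI-503 and WT DMSO, 69% were called. Counts of dKO MI-503 calls in the lists below are to be read beside these shares of all genes. They are 34.3% higher and 37.4% lower against WT DMSO, and 26.6% and 28.5% against WT MI-503. The effect of MI-503 differed between the genotypes, by the interaction term, for 46.8% of genes.

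Among genes with a mean of at least 5 CPM over the 8 libraries, several of the 8 largest changes in each direction were near 0 in 1 genotype and well above it in the other, in both dKO groups alike. Slitrk5, which encodes a transmembrane protein of neurons, gave 1268 counts in dKO MI-503 and 0 in WT DMSO. With the group's floor set at 3 counts, it was at least 399-fold higher. Gap43, a growth cone protein, gave 1959 counts in dKO MI-503 and 3 in WT DMSO, which is a 617-fold ratio with a 95% counting interval of 211 to 2990. Mill1, a relative of MHC class I genes, measured 0.293 and 0.165 CPM in WT DMSO and 57.1 and 58.8 CPM in dKO MI-503 (log2 fold change 7.97, SE 0.13, adjusted p = 8.04e-15). Myh10, a nonmuscle myosin heavy chain, measured 0.456 and 0.430 CPM against 82.0 and 74.1 CPM (log2 fold change 7.46, adjusted p = 4.73e-15). All 4 were already high in dKO DMSO, at 12.5 to 13.4 CPM for Slitrk5, 14.7 and 15.5 CPM for Gap43, 67.3 and 63.6 CPM for Mill1 and 62.1 and 63.5 CPM for Myh10.

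At the other end, Pak3, a kinase of neurons, gave 0 counts in dKO MI-503 and 7868 in WT DMSO, at least 2780-fold lower. Peg10, an imprinted gene of retroviral origin, gave 2 counts in dKO MI-503 and 2169 in WT DMSO, a 1150-fold ratio with a 95% counting interval of 317 to 9490. Both were near 0 in dKO DMSO as well, with at most 0.0152 CPM of Pak3 and 0.0421 CPM of Peg10. Of 7 tested genes at the Peg10 locus on chromosome 6, 0 rose and 7 fell, with a median of -3.59, against -0.033 for all genes tested. Ppp1r9a, an actin-binding scaffold gene at 4902872 to 5165661 on chromosome 6, measured 11.8 and 11.3 CPM in WT DMSO and 0.0445 and 0.0811 CPM in dKO MI-503. Pon3, a lactonase gene at 5216256 to 5256285, measured 16.4 and 18.1 CPM against 1.53 and 1.31 CPM (log2 fold change -3.59, SE 0.12, adjusted p = 7.31e-12). In WT MI-503, by contrast, Peg10 measured 109 and 111 CPM, above its 17.1 and 18.5 CPM in WT DMSO.

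A further set of the largest changes was built up over both steps. Cdsn, which encodes the corneodesmosin of cornified cells, measured 83.1 and 79.9 CPM in WT DMSO, 6.70 and 7.98 CPM in dKO DMSO and 0.119 and 0.211 CPM in dKO MI-503. It fell by 8.95 in all (SE 0.16, adjusted p = 1.85e-14), with -3.47 in the genotype step and -5.48 in the MI-503 step. Krt23, a keratin gene, measured 149 and 139 CPM, then 13.2 and 13.3 CPM, then 1.66 and 1.95 CPM in the same order (log2 fold change -6.32, adjusted p = 4.04e-15). Inpp4b, a phosphatase of PI3K signalling, gave 3 counts in dKO MI-503 and 2685 in WT DMSO, a 948-fold ratio with a 95% counting interval of 324 to 4600, and stood at 0.713 and 0.883 CPM in dKO DMSO. Upward, Aldh1l1, an enzyme of folate metabolism, measured 0.0488 and 0.0992 CPM, then 2.88 and 2.85 CPM, then 15.9 and 14.7 CPM (log2 fold change 7.66, SE 0.19, adjusted p = 4.73e-13). The proliferin genes Prl2c2, Prl2c3 and Prl2c5 were also among the 8 largest rises at that minimum level, but as near-identical copies they may divide reads in ways the counting does not resolve, and their values are not given.

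Few genes that differed in dKO DMSO moved back to the untreated WT level with MI-503. Of 11070 genes called between dKO DMSO and WT DMSO, 3941 (35.6%) moved further from WT with MI-503 and 3961 (35.8%) had no called MI-503 step. Another 1333 (12.0%) moved back and stopped short of WT, and 718 (6.49%) moved back and past it to a called difference on the other side. Another 838 (7.57%) moved back and ended at WT. For these the end value was not called and its 95% interval lay inside 1.5-fold either way. A further 279 (2.52%) moved back to an end value that was not called but had a wider interval. Genes with no called MI-503 step were not sorted by their end value. Of all genes tested, 4787 had an uncalled end value, 3195 of them with no called genotype step, so genes on other paths also ended uncalled. The steps share the dKO DMSO libraries and the genotype step shares WT DMSO with the end value, so these counts describe paths and are not tested against chance.

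Among the 3821 genes with a genotype step of at least 2-fold, 65 (1.70%) ended at WT, 79 (2.07%) beyond it and 742 (19.4%) short of it. The paths differed in share by direction: of 1773 genes at least 2-fold higher in dKO DMSO, 643 (36.3%) moved further away and 226 (12.7%) stopped short, whereas of 2048 genes at least 2-fold lower, 412 (20.1%) moved further and 516 (25.2%) stopped short. The difference between the directions was not tested. Of the 5851 genes with no called genotype step, 1417 were higher and 1239 lower in dKO MI-503 than in WT DMSO, 572 and 391 of them by at least 2-fold.

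**Figure D1:**
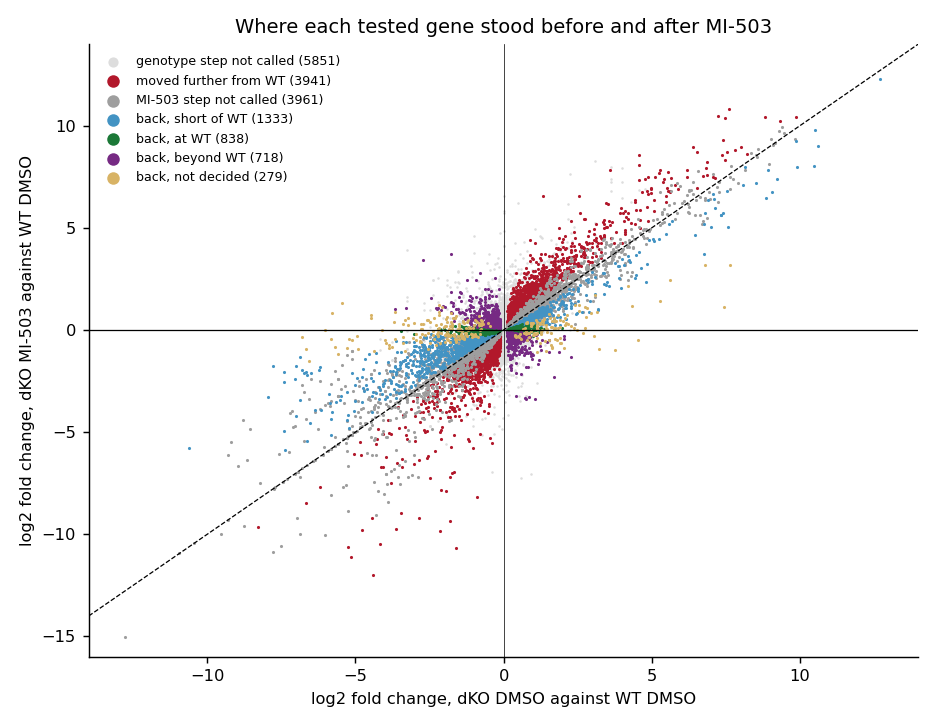
Each point is 1 of 16921 genes, with the log2 fold change of dKO DMSO against WT DMSO on the x axis and of dKO MI-503 against WT DMSO on the y axis. The dashed diagonal is no MI-503 step, the horizontal line is the untreated WT level, and colours give the path, with the number of genes in the legend. Both axes share the WT DMSO libraries.

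**Figure D2:**
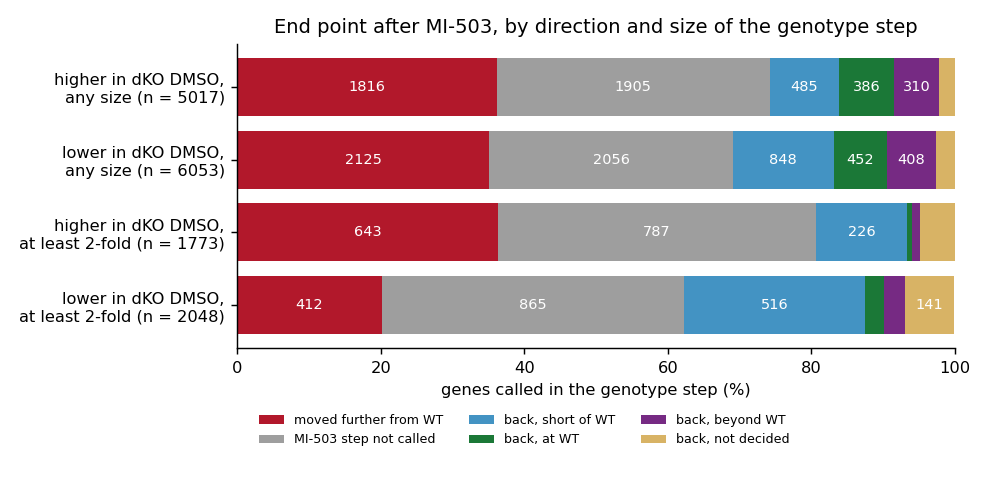
Bars give the percentage of genes on each path, by direction and size of the genotype step, with counts printed in segments over 5%. Most of each bar is genes that moved further away or had no called MI-503 step, and the segment at WT is small among genes with a step of at least 2-fold.

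Protein folding genes of the ER ended low almost without exception. The ER chaperone HSPA5, the HSP90 of the ER and their partners fold secreted proteins and are induced by the unfolded protein response. Of 19 ER chaperone and folding genes, 1 rose and 18 fell, with a median of -2.58. Hspa5 (chromosome 2, 34772090 to 34776529) measured 14102 and 15236 CPM in WT DMSO, 1511 and 1457 CPM in dKO DMSO and 410.3 and 408 CPM in dKO MI-503. It fell at both steps, with an end value of -5.16 (SE 0.061, adjusted p = 1.28e-15). WT MI-503 stood lower still, at 342 CPM in both libraries, so against treated WT cells Hspa5 was slightly higher in dKO MI-503 (log2 fold change 0.26, adjusted p = 0.000796). Creld2, a folding helper, measured 741 and 765 CPM in WT DMSO and 27.2 and 25.6 CPM in dKO MI-503 (log2 fold change -4.83, adjusted p = 2.09e-15). Manf, a secreted factor of ER stress, measured 1136 and 1232 CPM against 57.8 and 54.7 CPM (log2 fold change -4.40, adjusted p = 3.54e-15). Against WT MI-503 the same 19 genes had a median of 0.01, with 7 higher and 6 lower.

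A promoter element known from this response is present in many of these genes. The ER stress response element, searched on both strands as CCAAT and CCACG with any 9 bases between, occurs in the promoters of the 7 ER folding genes below, out of 14 of the 19 that have a RefSeq promoter (GRCm38.p6, 250 bases before to 50 after a start). It is found in 0.119% of 32851 such promoters, and in 0.137% of the 27025 genes that have one. Each match is shown 5′ to 3′ on the strand that carries it, with the fixed letters of the element in capitals.
Hspa5: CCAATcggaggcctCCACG
Hsp90b1: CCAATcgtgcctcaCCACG
Hsp90b1, second match: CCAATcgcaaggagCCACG
Calr: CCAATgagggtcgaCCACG
Canx: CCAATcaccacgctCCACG
Creld2: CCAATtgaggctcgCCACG
Dnajc3: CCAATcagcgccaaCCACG
Pdia6: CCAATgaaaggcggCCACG
The Hspa5 promoter, chr2:34771840-34772139 on the plus strand, is printed whole because Hspa5 had the largest drop in mean CPM, with the element in capitals.
Hspa5 promoter: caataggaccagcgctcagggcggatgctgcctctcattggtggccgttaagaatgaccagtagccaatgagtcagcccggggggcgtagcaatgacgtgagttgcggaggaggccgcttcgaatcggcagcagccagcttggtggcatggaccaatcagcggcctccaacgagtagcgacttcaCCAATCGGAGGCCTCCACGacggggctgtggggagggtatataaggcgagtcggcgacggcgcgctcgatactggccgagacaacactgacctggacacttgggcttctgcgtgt
All 7 of these genes fell, but so did 18 of the 19 in the list. Their fall therefore says nothing about the element. Of the 11 other tested genes that hold the element, 3 rose and 7 fell, against 34.3% and 37.4% of all genes. A match of letters shows no binding.

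The neighbouring arms of the stress response ended low as well. Of 22 genes of ER-associated degradation and translocation, 0 rose and 21 fell (median -1.27). Derl3, part of the channel through which misfolded proteins leave the ER, measured 212 and 218 CPM in WT DMSO and 0.252 and 0.276 CPM in dKO MI-503 (log2 fold change -9.66, SE 0.12, adjusted p = 1.28e-15). Most of that, -8.31, lay in the genotype step. All 14 cytosolic heat-shock genes fell (median -1.93). Hsph1, a partner of HSP70, measured 1966 and 2231 CPM in WT DMSO, 94.9 ± 7.3 CPM (SD, n = 2) in dKO DMSO and 94.7 and 88.7 CPM in dKO MI-503. Its MI-503 step did not pass (-0.05, adjusted p = 0.58), which was the path of 7 of the 14 genes, while 6 stopped short and 1 moved further. Against WT MI-503, 1 of the 14 was higher and 7 were lower (median -0.15), and of the 22 degradation and translocation genes 4 were higher and 8 lower (median -0.02).

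ATF4 target genes also ended low, mostly through the MI-503 step. ATF4 drives amino acid supply and is also activated by ER stress. In dKO DMSO, 10 of 24 were above WT and 12 below. MI-503 lowered all 24, and in dKO MI-503 3 were above and 21 below untreated WT (median -1.47), so that 7 of the 24 crossed the WT level. Atf3, a stress-induced transcription factor, measured 178 CPM in both WT DMSO libraries, 77.5 and 77.8 CPM in dKO DMSO and 4.41 and 4.34 CPM in dKO MI-503 (log2 fold change -5.35, SE 0.079, adjusted p = 4.58e-15). Ddit3, which encodes CHOP, measured 637 and 606 CPM, then 140.5 and 151 CPM, then 24.1 and 21.6 CPM (log2 fold change -4.76, adjusted p = 8.04e-15). Against WT MI-503, 2 of the 24 were higher and 16 lower in dKO MI-503 (median -0.45). Nupr1, a stress-induced chromatin protein gene, was among the lower, at 81.8 and 81.3 CPM in dKO MI-503 against 167 and 158 CPM in WT MI-503 (log2 fold change -0.99, adjusted p = 4.11e-10). Atf3 and Ddit3 did not pass there (-0.07, adjusted p = 0.585 for Atf3, and -0.07, adjusted p = 0.455 for Ddit3), with 95% intervals of -0.27 to 0.14 and -0.23 to 0.09. The core of the ATF4 element, TGATGCAA, searched on both strands, is in the promoters of 7 of the 23 members that have one, against 0.895% of all promoters, and 6 of these 7 genes fell and 1 rose. Among the 77 other tested genes with these letters, 25 rose and 33 fell. That is close to the 34.3% and 37.4% of all genes tested, so nothing is read from it.

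Aminoacyl-tRNA synthetases, which load amino acids onto tRNAs and include ATF4 targets, followed the same course. Of 20, 11 were above and 8 below WT in dKO DMSO, 17 fell with MI-503, and 6 were above and 13 below WT in dKO MI-503 (median -0.94). Against WT MI-503, 4 were higher and 12 lower (median -0.17). Rars, for arginine, measured 868 and 896 CPM in WT DMSO and 185 and 186 CPM in dKO MI-503 (log2 fold change -2.25, SE 0.048, adjusted p = 1.11e-13). Of 22 ribosome biogenesis genes linked to MYC, 3 rose and 16 fell (median -0.55), while against WT MI-503 12 were higher and 3 lower (median 0.19). Wdr43, which acts in rRNA processing, measured 474 CPM in both WT DMSO libraries, 321 and 311 CPM in dKO DMSO and 132 CPM in both dKO MI-503 libraries (log2 fold change -1.84, adjusted p = 2.69e-13). Rrp12 of the same list was an exception that ended at WT: 33.3 and 30.8 CPM in WT DMSO, 70.5 and 81.8 CPM in dKO DMSO and 35.8 and 32.1 CPM in dKO MI-503 (end value 0.09, 95% interval -0.09 to 0.26, adjusted p = 0.357).

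Of 25 p53 target genes, 5 rose and 18 fell (median -0.98), and 12 stopped short of WT after a partial return. Against WT MI-503, 7 were higher and 10 lower (median 0.05), beside 26.6% and 28.5% of all genes tested. Btg2, a brake on the cell cycle, was among those that stopped short, at 348 and 355 CPM in WT DMSO, 64.3 and 63.0 CPM in dKO DMSO and 80.7 and 80.2 CPM in dKO MI-503 (log2 fold change -2.13, SE 0.044, adjusted p = 8.34e-14). Gadd45a, a DNA damage response gene that ATF4 can also induce, moved further, from 234 and 245 CPM through 131 and 143 CPM to 22.2 and 21.2 CPM (log2 fold change -3.46, adjusted p = 1.36e-14).

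Proliferation genes were mostly higher after each step. Of 38 genes of S phase and mitosis, 34 rose and 4 fell (median 0.89), and 23 moved further from WT with MI-503. Aurkb, a mitotic kinase, measured 22.5 and 20.1 CPM in WT DMSO, 52.4 and 55.3 CPM in dKO DMSO and 111 and 101 CPM in dKO MI-503 (log2 fold change 2.31, SE 0.07, adjusted p = 2.46e-12). Cdc20, which triggers exit from mitosis, measured 40.2 and 37.9 CPM, then 62.5 and 65.4 CPM, then 150.4 and 147 CPM (log2 fold change 1.93, adjusted p = 9.71e-13). Against WT MI-503, 33 of the 38 were higher in dKO MI-503 and 3 lower (median 0.69), with 63.3 and 60.9 CPM of Aurkb in WT MI-503.

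Cholesterol synthesis rose almost as a block. Of 24 genes of cholesterol synthesis and uptake, 23 rose and 1 fell, with a median of 1.61, and 16 moved further from WT. In WT MI-503 their median against WT DMSO was 1.10. Against WT MI-503, 20 were higher and 3 lower in dKO MI-503 (median 0.37). Dhcr7, which makes cholesterol in the last step of the pathway, measured 13.0 and 13.1 CPM in WT DMSO, 46.2 and 45.4 CPM in dKO DMSO and 84.9 and 85.7 CPM in dKO MI-503 (log2 fold change 2.71, SE 0.056, adjusted p = 8.25e-14). Pmvk, a kinase of its mevalonate part, measured 3.19 and 3.08 CPM, then 16.8 and 17.1 CPM, then 39.5 and 38.0 CPM (log2 fold change 3.63, adjusted p = 1.29e-13). Letters of the sterol element, ATCAC and CCAC with any 1 base between, were in the promoters of 0 of the 16 members with one and in 0.234% of all promoters.

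Fatty acid and lipid genes were split in dKO DMSO, with 9 of 24 above and 9 below WT, and mostly high at the end, with 16 above and 5 below (median 0.48). In WT MI-503 their median against WT DMSO was 0.52. Against WT MI-503, 9 were higher and 8 lower in dKO MI-503 (median 0.07). Scd2, which makes unsaturated fatty acids, measured 312 and 308 CPM in WT DMSO, 633 and 595 CPM in dKO DMSO and 3398 and 3402 CPM in dKO MI-503 (log2 fold change 3.45, SE 0.052, adjusted p = 4.73e-15). Lpin1, a phosphatase of triglyceride synthesis, went beyond WT: 9.82 and 10.2 CPM in WT DMSO, 6.03 and 5.47 CPM in dKO DMSO and 68.7 and 71.3 CPM in dKO MI-503 (log2 fold change 2.81, adjusted p = 2.53e-13). Its level in WT MI-503 was close to that, at 61.4 and 60.9 CPM.

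Of 30 genes of NRF2 and glutathione metabolism, which detoxify oxidants and drugs, 23 rose and 5 fell (median 1.12). Here 16 moved further from WT and 8 crossed it. In WT MI-503 the median of these genes against WT DMSO was 1.46. Against WT MI-503, 11 were higher and 15 lower in dKO MI-503 (median -0.11). Gsr, the glutathione reductase, measured 109 and 106 CPM in WT DMSO, 249 and 244 CPM in dKO DMSO and 572 and 590.3 CPM in dKO MI-503 (log2 fold change 2.44, SE 0.046, adjusted p = 3.19e-14). Abcc1, which exports glutathione conjugates, measured 167 and 157 CPM, then 402 and 389 CPM, then 766 and 799 CPM (log2 fold change 2.27, adjusted p = 1.2e-13). The antioxidant element, TGAC and GCA with any 3 bases between, was in the promoters of 3 of 23 members and in 3.04% of all promoters. Of 29 lysosome and autophagy genes, 17 rose and 9 fell (median 0.32), while against WT MI-503 3 were higher and 18 lower (median -0.22). The cathepsin genes Ctsh and Ctsl were among the 9: Ctsh measured 100.2 and 100.1 CPM in WT DMSO and 3.55 CPM in both dKO MI-503 libraries (log2 fold change -4.82, adjusted p = 4.04e-15), after 2.88 and 2.55 CPM in dKO DMSO.

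**Figure D3:**
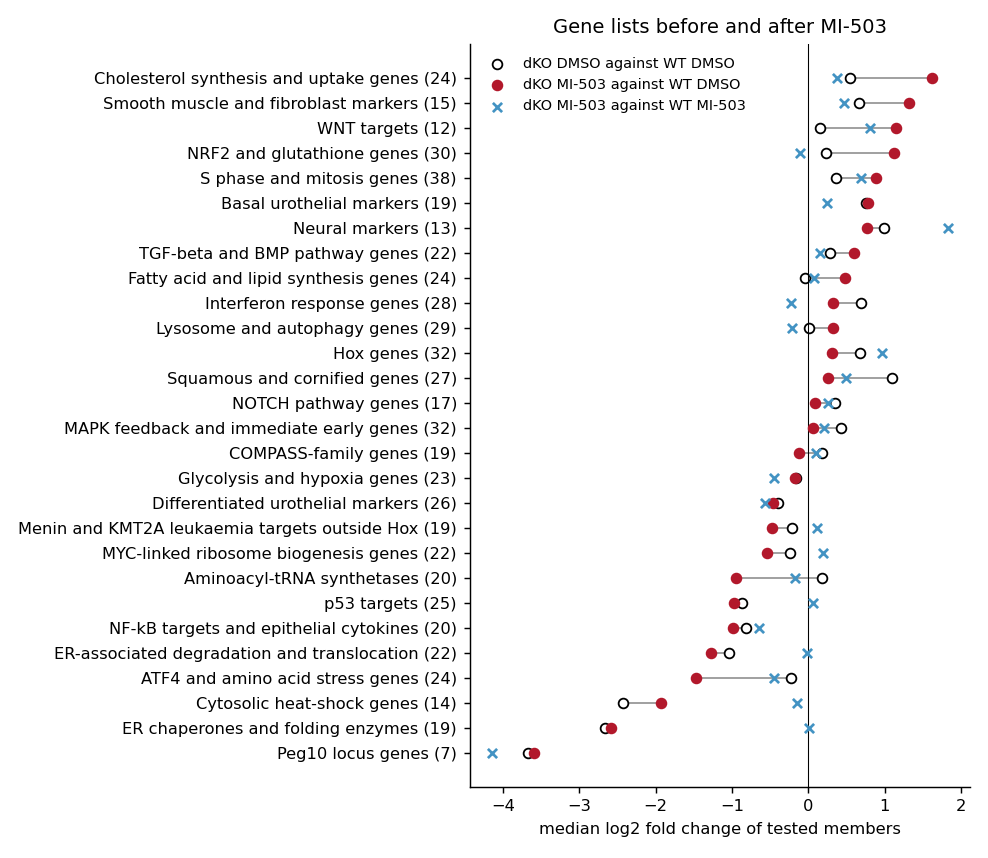
For each gene list with at least 5 tested members (number in brackets), the median log2 fold change is shown for dKO DMSO (open circles) and dKO MI-503 (red) against WT DMSO, joined by a line, and for dKO MI-503 against WT MI-503 (blue crosses). Between the circles the median moved down most for ATF4 and tRNA synthetase genes and up most for cholesterol and WNT genes, and the ER, heat-shock and p53 lists lay near 0 against WT MI-503.

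The epithelial programmes ended between basal and mixed. Of 19 basal urothelial markers, 14 rose and 3 fell (median 0.79). Krt5, the keratin of basal cells, measured 4130.4 and 3817 CPM in WT DMSO, 9063 and 10095 CPM in dKO DMSO and 11012 and 9767 CPM in dKO MI-503 (log2 fold change 1.39, SE 0.072, adjusted p = 5.79e-10), and its MI-503 step did not pass (0.12, adjusted p = 0.181). Bcam, a laminin-binding receptor, measured 35.7 and 29.9 CPM in WT DMSO and 363 and 292 CPM in dKO MI-503 (log2 fold change 3.32, adjusted p = 1.35e-11). Markers of differentiated urothelium leaned the other way, with 9 of 26 higher and 16 lower (median -0.46). Of the 29 listed, 9 stayed under 1 CPM in dKO MI-503. Tmprss2, with the smallest p of the list, rose from 12.4 CPM in both WT DMSO libraries to 68.0 and 73.1 CPM in dKO MI-503 (log2 fold change 2.51, adjusted p = 3.31e-13). Pparg, a nuclear receptor that promotes urothelial differentiation, fell at both steps, from 20.8 and 20.7 CPM through 8.49 and 7.51 CPM to 3.40 and 3.91 CPM (log2 fold change -2.51, SE 0.097, adjusted p = 2.66e-11). In WT MI-503 it measured 19.9 and 21.1 CPM. Psca, a surface antigen of the urothelium, measured 307 and 281 CPM in WT DMSO and 110.2 and 109 CPM in dKO MI-503 (log2 fold change -1.42, adjusted p = 1.79e-11).

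Squamous and cornified genes were mostly high in dKO DMSO, with 16 of 27 above WT, 8 below and a median of 1.10. In dKO MI-503, 14 were above and 7 below, with a median of 0.26. The lower median was not a shared return to WT, as 11 members moved further from it, 5 stopped short and 2 ended at it. Krt16, a keratin of activated keratinocytes, ended at WT: 123 and 102 CPM in WT DMSO, 246 and 277 CPM in dKO DMSO and 125 and 117 CPM in dKO MI-503 (end value 0.11, 95% interval -0.07 to 0.28, adjusted p = 0.258). S100a7a, a calcium-binding protein of inflamed epidermis, moved further up, from 3.60 and 3.32 CPM through 29.9 and 26.9 CPM to 105 and 110.2 CPM (log2 fold change 4.96, adjusted p = 8.04e-15). Sprr3 and Sprr1a, which encode precursors of the cornified envelope, moved further down. Sprr1a measured 277 and 279 CPM, then 62.4 and 73.0 CPM, then 36.1 and 34.4 CPM (log2 fold change -2.98, adjusted p = 1.77e-13).

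Hox genes were pulled back by MI-503 but not uniformly to WT. Of 32, 19 were above and 3 below WT in dKO DMSO, and 18 fell and 0 rose with MI-503. In dKO MI-503, 13 were above and 7 below WT (median 0.31), with 8 short of WT, 2 at it and 2 beyond it. Hoxb13, a gene of the posterior body, kept a high level, at 1.33 and 1.34 CPM in WT DMSO, 12.5 and 14.7 CPM in dKO DMSO and 12.1 and 11.9 CPM in dKO MI-503 (log2 fold change 3.17, SE 0.16, adjusted p = 3.22e-10). Hoxb9 had no called genotype step, at 9.08 and 9.66 CPM in WT DMSO and 9.37 and 7.71 CPM in dKO DMSO, and fell to 2.43 and 2.22 CPM (log2 fold change -2.01, adjusted p = 5.44e-09).

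Of 19 genes outside the Hox clusters that menin and KMT2A are known to hold in leukaemia, 6 rose and 11 fell (median -0.48). Meis1, a Hox cofactor, measured 33.9 and 35.7 CPM in WT DMSO, 30.8 and 29.4 CPM in dKO DMSO and 10.4 and 11.3 CPM in dKO MI-503 (log2 fold change -1.68, SE 0.072, adjusted p = 7.3e-11). Cpeb2, which encodes a regulator of translation, fell in nearly equal steps, from 86.7 and 88.4 CPM through 42.8 and 40.3 CPM to 17.0 and 16.5 CPM (log2 fold change -2.39, adjusted p = 5.03e-13). Of 19 COMPASS-family genes, 5 rose and 9 fell, with a median of -0.13 that turned to 0.11 by library size only.

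Both EGF receptor ligands named here passed the WT level on the way down. Epgn was named for that path, so its crossing follows from the choice. Areg was named for its small p in a list that also holds other such ligands. Epgn and Areg encode epigen and amphiregulin, which bind this receptor. Epgn (chromosome 5, 91027517 to 91035212) measured 49.9 and 49.7 CPM in WT DMSO, 248 and 229 CPM in dKO DMSO and 19.5 and 20.5 CPM in dKO MI-503. It rose in the genotype step and ended beyond WT, with an end value of -1.31 (SE 0.058, adjusted p = 1.03e-10). Areg, on the same chromosome, measured 310.1 and 324 CPM, then 516 and 502 CPM, then 132 and 139 CPM (end value -1.23, adjusted p = 2.95e-11). In WT MI-503 both genes were also below WT DMSO, at 5.47 and 5.70 CPM for Epgn and 119 and 123 CPM for Areg. The list of 32 MAPK feedback and immediate early genes that holds both had 21 above and 5 below WT in dKO DMSO. In dKO MI-503 it had 13 above and 11 below, 4 of them beyond WT and 3 at it, with a median of 0.06. Dusp5, a feedback phosphatase, was low throughout the dKO libraries: 95.5 and 91.7 CPM in WT DMSO, 33.8 and 37.7 CPM in dKO DMSO and 32.6 and 32.8 CPM in dKO MI-503.

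Other genes that crossed the WT level downward were Adm2, a peptide hormone of the adrenomedullin family, and Arid5a, an RNA-binding protein that stabilises cytokine transcripts. Adm2 measured 16.0 and 14.1 CPM in WT DMSO, 33.4 ± 3.72 CPM (SD, n = 2) in dKO DMSO and 5.30 and 4.07 CPM in dKO MI-503 (end value -1.68, SE 0.12, adjusted p = 2.1e-08). Arid5a measured 62.0 and 53.8 CPM, then 103 and 120.4 CPM, then 26.2 and 24.4 CPM (end value -1.20, adjusted p = 1.77e-08). Besides Lpin1, upward crossings named by the rule included Steap3, Ndrg2 and Spon2. Steap3, an iron reductase, measured 3.01 and 2.81 CPM, then 1.11 and 1.05 CPM, then 11.6 and 8.69 CPM (end value 1.80, SE 0.13, adjusted p = 2.5e-08). Ndrg2, a stress-responsive gene, measured 2.18 and 1.87 CPM, then 0.758 and 0.421 CPM, then 7.58 and 7.07 CPM (end value 1.85, adjusted p = 5.86e-08). Spon2, a secreted matrix protein, ended at 4.24 and 3.74 CPM, after 0.163 and 0.446 CPM in WT DMSO and 0.106 and 0.0701 CPM in dKO DMSO. In WT MI-503 these 3 genes stood higher than in dKO MI-503, at 37.6 and 34.1 CPM for Steap3, 12.8 and 12.3 CPM for Ndrg2 and 30.0 and 29.2 CPM for Spon2.

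The genes that ended at WT after a large genotype step included a receptor kinase and a protease inhibitor. Axl, a receptor tyrosine kinase linked to invasion, measured 228 and 218 CPM in WT DMSO, 50.6 and 51.7 CPM in dKO DMSO and 229 and 223 CPM in dKO MI-503. The end value was 0.02 (95% interval -0.08 to 0.12, adjusted p = 0.717). The same level was not that of treated WT cells, where Axl measured 739 and 721 CPM. Serpinb2, an inhibitor of plasminogen activators, measured 245 and 263 CPM, then 678 and 640.1 CPM, then 257 and 267 CPM (end value 0.04, 95% interval -0.06 to 0.15, adjusted p = 0.443), with 30.2 and 31.0 CPM in WT MI-503. Slc9a9, a sodium-proton exchanger of endosomes, measured 7.26 and 7.61 CPM, then 30.1 and 28.0 CPM, then 7.78 and 8.35 CPM (end value 0.12, 95% interval -0.07 to 0.30, adjusted p = 0.239). Its WT MI-503 level was 7.06 and 7.22 CPM, so for Slc9a9 only the dKO DMSO libraries stood apart. Aknad1, a gene of little known function, was alike in this, at 13.1 and 12.9 CPM, then 2.93 and 2.96 CPM, then 13.2 and 13.7 CPM, and 13.4 and 13.6 CPM in WT MI-503. These end values depend on the scaling: by library size only Axl (0.26), Serpinb2 (0.29), Aknad1 (0.29), Slc9a9 (0.36), Rrp12 (0.33) and Krt16 (0.35) passed the test as higher, each still under the 1.5-fold margin. Krt16 also passed without WT DMSO replicate 1 (0.25, adjusted p = 0.0114), with only the groups compared (0.17, adjusted p = 0.0463) and without a filter on low counts (0.17, adjusted p = 0.00419).

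**Figure D4:**
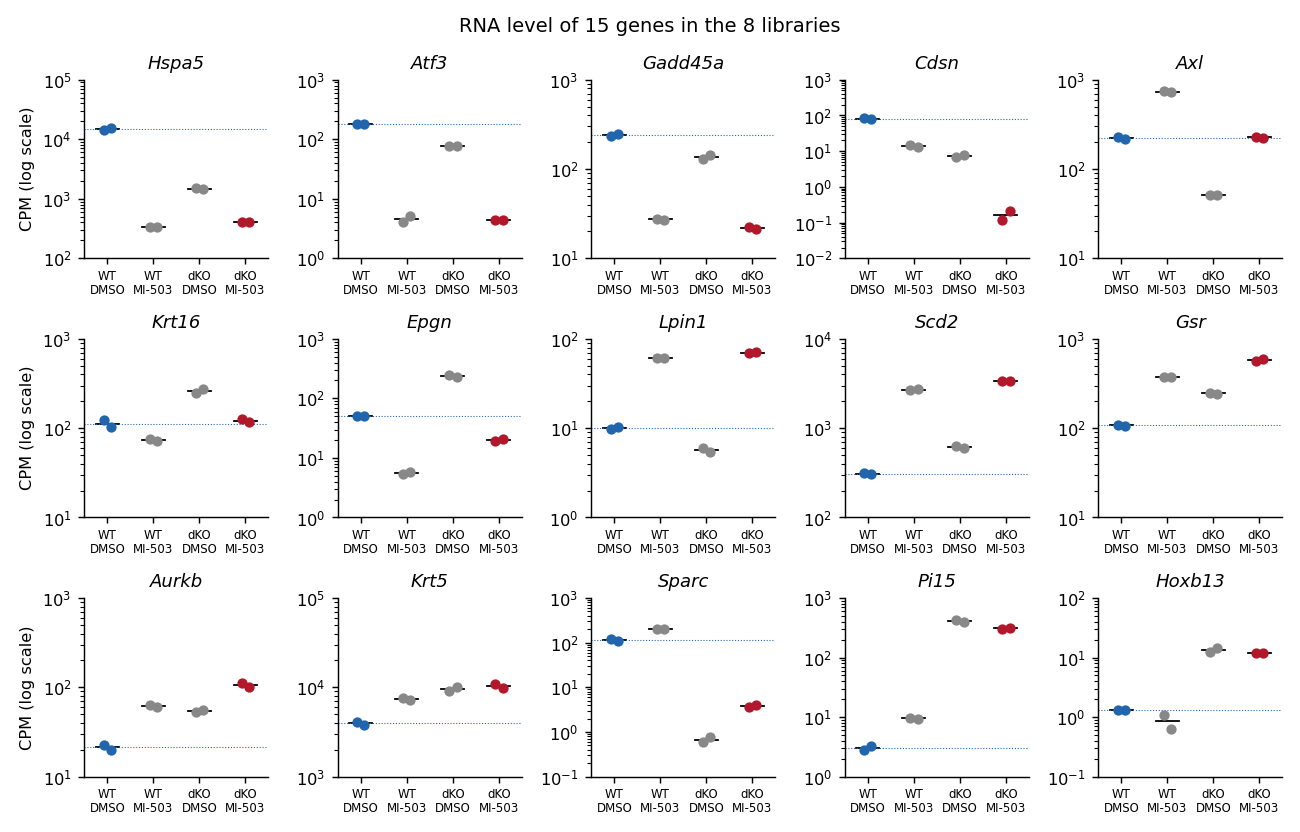
RNA levels of 15 genes in CPM on log axes, with 1 point for each library and a bar at the mean of each group of 2. Blue points and the dotted line mark WT DMSO and red points dKO MI-503. Axl and Krt16 end on the dotted line, Epgn below and Lpin1 above it after the opposite genotype step, and Sparc and Pi15 stay far from it.

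Genes that stopped short had a median end value of 0.54 where the genotype step was up and -0.69 where it was down, and of 1.07 and -1.13 with a genotype step of at least 2-fold. Those with the largest genotype steps, described next, ended further from WT than these medians. Sparc, a matrix protein, measured 122 and 111 CPM in WT DMSO, 0.591 and 0.757 CPM in dKO DMSO and 3.61 and 4.04 CPM in dKO MI-503 (end value -4.93, SE 0.079, adjusted p = 8.04e-15). Col8a1, a short-chain collagen, measured 60.4 and 61.4 CPM, then 0.591 and 0.364 CPM, then 3.40 and 3.11 CPM (end value -4.22, adjusted p = 6.84e-14). Pycard, the adaptor of inflammasomes, measured 54.9 and 47.9 CPM, then 0.440 and 0.575 CPM, then 1.20 CPM in both dKO MI-503 libraries (end value -5.42, adjusted p = 2.7e-14). From above, Pi15, which encodes a peptidase inhibitor, measured 2.85 and 3.27 CPM, then 426 and 399 CPM, then 306 and 319 CPM (end value 6.67, SE 0.076, adjusted p = 1.28e-15). Klf12, a repressor gene, measured 0.0326 and 0.0827 CPM, then 16.9 and 15.2 CPM, then 8.59 and 7.70 CPM.

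Signalling and inflammatory genes were mixed. Of 20 NF-kB targets and epithelial cytokines, 4 rose and 15 fell (median -0.99). Il23a, a subunit of interleukin 23, measured 69.4 and 67.6 CPM in WT DMSO and 0.223 and 0.162 CPM in dKO MI-503 (log2 fold change -8.45, SE 0.12, adjusted p = 4.31e-15). Icam1, an adhesion molecule for leukocytes, measured 62.9 and 61.7 CPM against 7.50 and 7.13 CPM (log2 fold change -3.09, adjusted p = 1.11e-13). Of 28 interferon response genes, 11 rose and 6 fell (median 0.33), beside 34.3% and 37.4% of all genes tested. In dKO DMSO, 16 of them were above and 7 below WT. Irf1, a transcription factor of that response, measured 19.4 and 18.5 CPM, then 2.40 and 1.85 CPM, then 6.44 and 7.39 CPM (end value -1.46, adjusted p = 6.04e-09).

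Of 12 WNT target genes, 7 rose and 1 fell (median 1.15). Lgr5, a receptor for R-spondin, which the medium contains, gave 1590 counts in dKO MI-503 and 1 in WT DMSO, a 1500-fold ratio with a 95% counting interval of 269 to 59400. It measured 6.73 and 6.41 CPM in dKO DMSO. Its relative Lgr6 had no called genotype step, at 0.944 and 1.16 CPM in WT DMSO and 1.03 and 0.827 CPM in dKO DMSO, and rose to 11.8 and 12.3 CPM in dKO MI-503 (log2 fold change 3.52, SE 0.12, adjusted p = 6.19e-12). Axin2, a feedback inhibitor, measured 3.79 and 3.65 CPM in WT DMSO and 25.6 and 23.4 CPM in dKO MI-503. The genotype step was 2.73, and the MI-503 step did not pass (-0.01, adjusted p = 0.915).

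Of 22 genes of the TGF-beta and BMP pathways, 13 rose and 6 fell (median 0.60), in cells whose TGF-beta receptor is inhibited by the medium. Id2, a BMP target, measured 38.2 and 38.3 CPM, then 58.4 and 59.8 CPM, then 192 and 195 CPM (log2 fold change 2.34, SE 0.047, adjusted p = 5.97e-14). Of 17 NOTCH pathway genes, 7 rose and 7 fell (median 0.08), which is near the 34.3% and 37.4% of all genes tested. Rbpj, the DNA-binding partner of NOTCH, measured 252 and 257 CPM in WT DMSO and 52.4 and 56.6 CPM in dKO MI-503 (log2 fold change -2.22, adjusted p = 4.06e-13), and Hes1, its target, 47.3 and 51.0 CPM against 129 and 117 CPM (log2 fold change 1.32, adjusted p = 1.59e-10). Of 23 glycolysis and hypoxia genes, 10 rose and 12 fell, with a median of -0.18 that turned to 0.066 by library size only. Ndrg1, a hypoxia gene, fell at both steps, from 297 CPM in both WT DMSO libraries through 105 and 102 CPM to 19.1 and 21.3 CPM (log2 fold change -3.88, SE 0.068, adjusted p = 1.59e-14), and Vegfa, the endothelial growth factor gene, from 347 and 337 CPM through 216 and 234 CPM to 99.5 and 96.0 CPM (log2 fold change -1.81, adjusted p = 1.58e-12).

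**Figure D5:**
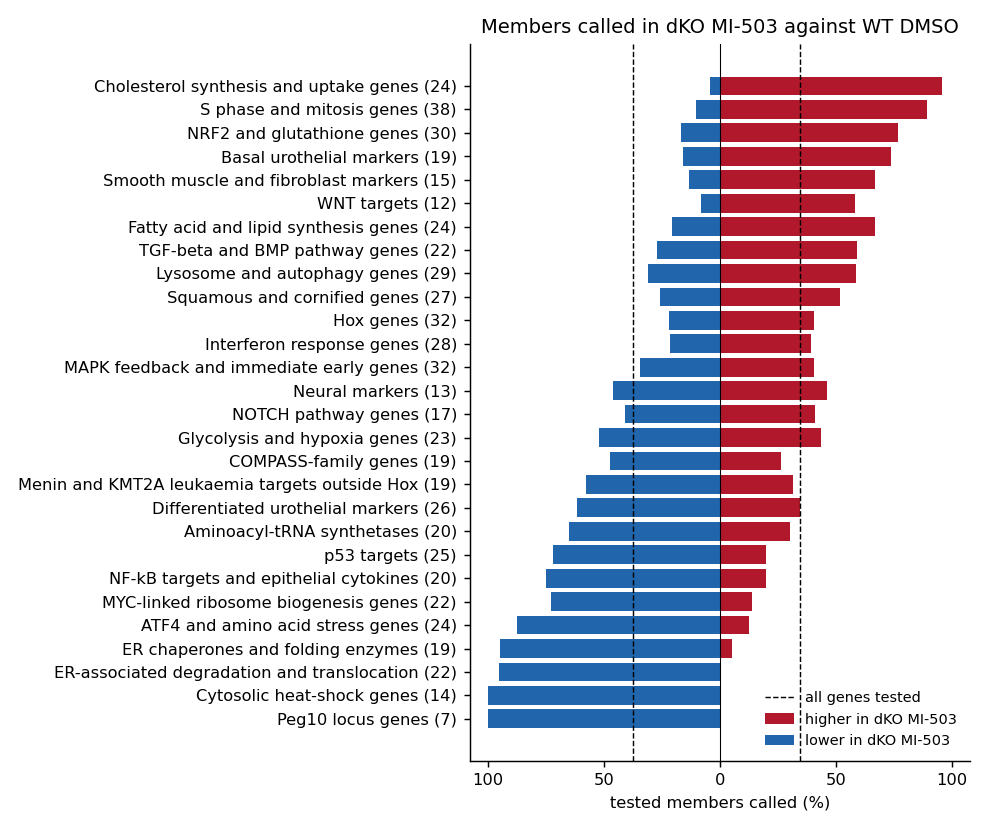
Bars give the percentage of tested members of each list that were called higher (right) or lower (left) in dKO MI-503 than in WT DMSO, with the number tested in brackets. Dashed lines mark the same percentages over all genes tested, 34.3% and 37.4%. All 7 genes of the Peg10 locus and all 14 cytosolic heat-shock genes were lower, and 23 of 24 cholesterol genes were higher.

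Markers of other cell types were mostly near 0. Of 27 markers of smooth muscle and fibroblasts, 15 were tested, of which 10 rose and 2 fell (median 1.32). Their sum was 103.8 to 115.7 CPM in WT DMSO, 294.6 to 322.9 CPM in dKO DMSO and 270.9 to 301.9 CPM in dKO MI-503, while Col1a2, Dcn, Lum, Thy1 and Postn were at 0 in each of these groups. Vim, the filament protein of mesenchymal cells, measured 0.488 and 0.496 CPM in WT DMSO and 15.6 and 13.2 CPM in dKO MI-503 (log2 fold change 4.86, SE 0.16, adjusted p = 6.39e-12). Fn1, the fibronectin gene, stopped short of WT, at 38.0 and 33.8 CPM, then 174 and 176 CPM, then 89.7 CPM in both dKO MI-503 libraries. Of 17 immune markers, 3 were tested, and 10, among them Cd3e and Itgam, were at 0 in dKO MI-503. The sum of this list, 18.7 to 21.5 CPM in WT DMSO and 62.2 to 70.9 CPM in dKO MI-503, lay mostly in Cd68, a lysosomal protein also found outside macrophages, at 18.6 and 16.5 CPM against 69.8 and 61.2 CPM. Of 11 endothelial markers, 3 were tested and 10 stayed under 1 CPM in dKO MI-503. Of 13 tested neural markers, 6 rose and 6 fell (median 0.77).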

How the data were processed

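The deposited table holds raw counts per Ensembl gene, 1 column per library, as whole numbers with unequal totals. Per the submitters' processing notes, STAR is among the tools and GRCm38 and mm10 among the builds of the series. No source used here names the counting program, strand setting or annotation. Overlapping genes and close paralogs are therefore uncertain. Symbols came from a reference name table (53274 of 53465 identifiers), and 1 row without an identifier or number was left out. The other 32 samples were not analysed here.

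The fit used edgeR 4.0.16 under R 4.3.3. Genes passed filterByExpr by group (minimum count 10, minimum total 15), libraries had TMM factors, and all 8 libraries entered 1 quasi-likelihood model of group means, with 4 residual degrees of freedom. Two-sided F tests were adjusted by Benjamini-Hochberg. SE is the size of a log2 fold change divided by the root of its F. The script was tested on simulated data. With 2 libraries a group, the smallest p of an exact permutation test is 0.33. Floors of 3 counts and counting intervals (exact, 95%) cover counting error only. Alternatives were RLE factors, library size only, DESeq2 1.42.0, other filters, other sets of libraries, a replicate block, a threshold of 0.01 and other margins.

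Members, lists, paths and tests were chosen with earlier results of these data known, and the 30 lists support nothing independently. Genes were named by a rule: the 8 largest changes in each direction, the 4 leading genes per path and direction, and the 3 genes with the smallest p per list, with a mean of at least 5 CPM over all 8 libraries and no overlap between the groups for the first 2 kinds. For genes that ended at WT the overlap condition was dropped after the data were seen. The text leaves out part of the genes that the rule names. Promoter elements, and the genes named for holding one, were chosen after the data were seen. Some items are not reported here.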

Additional observations from a re-analysis of the deposited data

Results flagged for a closer look

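By the interaction term of the same edgeR fit, the effect of MI-503 differed between the genotypes for 95 of the 123 genes named by the rule (adjusted p under 0.05). Over all genes tested the share was 46.8%, and the rule chose these genes for large or well-resolved changes in the same libraries, so nothing is read from the count. In 8 of them MI-503 was followed by called changes in opposite directions in WT and dKO. The differences below are log2 values, dKO minus WT. Hspb8, a small heat-shock protein gene, fell by 1.54 in WT and rose by 0.69 in dKO, a difference of 2.23 (adjusted p = 1.59e-10). Btg2 fell by 1.48 in WT and rose by 0.34 in dKO, a difference of 1.82 (adjusted p = 1.98e-10). Icam1 fell by 0.51 and rose by 0.43, a difference of 0.94 (adjusted p = 2.69e-06), and Myh10 fell by 0.69 and rose by 0.31, a difference of 1.01 (adjusted p = 0.00706). Pi15 rose by 1.64 in WT and fell by 0.40 in dKO, a difference of -2.04 (adjusted p = 4.82e-09). Usp18, an interferon-induced gene, rose by 0.47 and fell by 0.91, a difference of -1.38 (adjusted p = 2.54e-06). Mill1 rose by 0.97 and fell by 0.17, a difference of -1.15 (adjusted p = 0.00425), and Psca rose by 0.50 and fell by 0.35, a difference of -0.85 (adjusted p = 6.67e-07). Each of these differences rests on 2 libraries per group. For Mill1 and Myh10 the WT side also rests on few counts. Mill1 gave 18 and 10 counts in WT DMSO and 32 and 26 in WT MI-503, and Myh10 gave 28 and 26 against 16 and 19.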

How the results depend on the processing

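The counts of genes called between dKO MI-503 and WT DMSO stayed within 1.5 times under the alternatives run, except that the stricter filter left 1593 genes lower by at least 2-fold in place of 2658. That filter also left 672 in place of 1652 genes of at least 2-fold with no called MI-503 step, and 65 and 42 genes on the undecided path in place of 279 and 228, over fewer genes tested. A threshold of 0.01 left 449 genes beyond WT in place of 718. A margin of 1.25-fold put 25 genes of at least 2-fold at WT and 479 of any size on the undecided path, and a margin of 2-fold gave 133 and 165 for the same counts. As a share of the raw total, ER chaperone genes took 3.88% (WT DMSO), 0.582% (dKO DMSO) and 0.466% (dKO MI-503). TMM factors taken without the listed ER, ATF4, tRNA synthetase and heat-shock genes, an alternative chosen after seeing the data, gave 12137 genes called in place of 12134. Leaving out 1 library at a time gave 11247 to 12307 genes called.

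The median of all genes, -0.033, became 0.0042 with RLE factors, 0.21 by library size only, 0.004 with DESeq2, 0 without a filter, 0.025 with the stricter filter and 0.031 with only the groups compared. By library size only, Kmt2a turned to 0.10, Unc5a to 0.18 and Aif1l to 0.033, and the list medians of COMPASS-family genes to 0.11 and of glycolysis and hypoxia genes to 0.066. Unc5a also turned to 0.0069 without a filter, 0.026 with the stricter filter and 0.0053 with only the groups compared. Other turns, with 1 library left out, were of end values not called in the full fit. Not all of these values stayed near 0, Unc5a among them. Aif1l did not turn but was -0.40 without WT DMSO replicate 1. Both Unc5a and Aif1l ended at WT in the full fit. Kmt2d ran from -0.075 (without dKO MI-503 replicate 1) to 0.19 (without dKO MI-503 replicate 2), with -0.0049 without WT DMSO replicate 2. Serpinb2 ran from -0.0029 (without WT DMSO replicate 1) to 0.090 (without WT DMSO replicate 2). Without these same replicates Krt16 ran from 0.25 to -0.031, Axl from 0.053 to -0.017 and Unc5a from 0.28 to -0.34, and Axl was -0.0024 without dKO MI-503 replicate 1. Kmt2a was not called under these scalings and filters, DESeq2, only the groups compared, or without WT DMSO replicate 1 or dKO MI-503 replicate 1. With the stricter filter Slc9a9 (0.20), Serpinb2 (0.13) and Axl (0.11) passed, and without a filter Krt16 (0.17) and Kmt2d (0.14). With only the groups compared Krt16 (0.17) passed. The cause was not tested.

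Same-numbered libraries did not deviate together (r of -0.0886 to 0.0585 over the 6 pairs of groups, across genes), so the numbers are taken as names only. With a replicate block, 11943 genes were called in place of 12134.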
